A study of Mus musculus with 2 samples.

Results

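CC chemokines are small secreted proteins that draw leukocytes into inflamed and healing tissue, and they are named for a pair of adjacent cysteines near the start of the mature protein. They bind G-protein-coupled receptors on the responding cell, and most receptors take several ligands. In a fracture callus, the repair tissue that bridges a broken bone, they are known for recruiting monocytes, neutrophils and osteoclast precursors. The set described here holds 9 of the 32285 genes of the count matrices, chosen by gene symbol: 6 ligands (Ccl2, Ccl7, Ccl3, Ccl4, Ccl6 and Ccl9), 2 signalling receptors (Ccr1 and Ccr2) and Ccrl2, an atypical receptor that does not signal like the others and presents the chemoattractant chemerin. Each of the 9 had UMIs (unique molecular identifiers, 1 per captured RNA molecule) in both libraries.

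Callus cells of wild-type mice with a femoral fracture were profiled by droplet single-cell RNA-seq (scRNA-seq). The design comprised calluses from 5 mice at 10 days post-fracture (dpf) and 5 mice at 20 dpf. The labels give neither library, MGJ or MGJ2, a day, a strain or an age, and barcodes do not separate the mice. The libraries were therefore described side by side, without a test, a mean or a fold between them, and every interval below covers counting error only. Both shared the genotype label (wt mice), the tissue (callus) and the fracture model, so no other allele or agent was part of the comparison.

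The matrices held 14295 barcodes in MGJ and 8009 in MGJ2, with a median of 5026 and 4952 UMIs, and 19 barcode sequences occurred in both. After removal of barcodes under 200 genes, above 20% mitochondrial UMIs or with a high doublet score, 12932 cells of MGJ and 7575 of MGJ2 were kept. Clusters were named after lists of marker genes that held no chemokine or receptor gene, and the names are therefore given as "-like". In every class with at least 50 cells each marker of its own list had a UMI, except Vsig4 in the macrophage-like cells of MGJ. Neutrophil-, immature neutrophil-, monocyte-, T cell- and chondrocyte-like cells had different main clusters in the libraries. Neutrophil-like cells were mainly clusters 5 (1325 cells) and 22 (265 cells) in MGJ and cluster 2 (1590 cells) in MGJ2, and monocyte-like cells were mainly cluster 11 (564 cells) in MGJ and cluster 4 (1419 cells) in MGJ2. Fibroblast-, tenocyte-, pericyte- or smooth muscle-, endothelial-, macrophage- and erythroid-like cells reached 50 cells in MGJ only, and mast cell- or basophil-like and plasmacytoid dendritic cell-like cells in MGJ2 only.

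Cluster 0 of MGJ, with 2663 cells and a median of 1765 UMIs, was left unnamed because its median UMI count was low (0.320 of that of all kept cells of the library, where the limit was 0.333), with no marker of its best list, neutrophil, among its leading genes. It bears on several results, since Ccl3, Ccl4 and Ccrl2 were among its 10 leading genes although they were kept out of clustering. The neutrophil list (S100a8, S100a9, Csf3r and others) summed to 90589 CPM (UMIs per 1000000 UMIs of the same cells) in it, against 161383 CPM in cluster 5 and 53340 CPM in cluster 22. Clusters 5 and 22 stood just above the same limit, at 0.334 and 0.350 of the median.

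The 6 ligand genes lie on chromosome 11 and the 3 receptor genes on chromosome 9 (GRCm38, GENCODE M21), and all are annotated as protein-coding. Ccl2 (chr11:82035571-82037453, plus strand) and Ccl7 (chr11:82045712-82047525, plus strand) are neighbours, 8258 bases apart. Ccl9 (chr11:83572919-83578636, minus strand) and Ccl6 (chr11:83587882-83593087, minus strand) are 9245 bases apart. Ccl3 (chr11:83647844-83649355, minus strand) and Ccl4 (chr11:83662584-83664683, plus strand) are 13228 bases apart and point away from each other. Ccr1 (chr9:123962124-123968692, minus strand) and Ccr2 (chr9:124101950-124113557, plus strand) are 133257 bases apart, and Ccrl2 (chr9:111054486-111057519, minus strand) lies 12904604 bases before Ccr1.

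The stretch of coding sequence that gives the family its name is shown for the 6 ligands, 5′ to 3′ from the GENCODE M21 transcripts, with the codons of the adjacent cysteines in capitals.
Ccl2: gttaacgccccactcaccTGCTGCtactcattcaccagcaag
Ccl7: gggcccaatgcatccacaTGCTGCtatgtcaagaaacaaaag
Ccl3: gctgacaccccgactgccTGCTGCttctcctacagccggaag
Ccl4: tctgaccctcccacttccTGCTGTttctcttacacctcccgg
Ccl6: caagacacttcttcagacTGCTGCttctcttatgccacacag
Ccl9: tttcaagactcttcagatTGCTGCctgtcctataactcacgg
The cysteine codons stood at positions 34 and 35 of the reading frame in Ccl2, Ccl3 and Ccl4, and at 57 and 58 in Ccl9. Over the whole coding sequence the neighbours Ccl3 and Ccl4 were 68.1% identical, Ccl6 and Ccl9 64.6%, and Ccl2 and Ccl7 46.2%. The longest run of bases shared by the transcripts of a pair was 25 bases for Ccl6 and Ccl9, 23 bases for Ccl2 and Ccl7 and 9 bases for Ccl3 and Ccl4. No pair of the ligands shared a longer run.

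Classes were ranked within a library where they had at least 50 cells, and "highest" refers to these classes throughout. In MGJ, Ccl2 and Ccl7 were highest in stromal classes, Ccl3, Ccl4, Ccl6, Ccr1 and Ccrl2 in neutrophil-like cells, Ccl9 in osteoclast-like cells and Ccr2 in NK cell-like cells. In MGJ2, Ccl2 and Ccl7 were highest in monocyte-like cells, Ccl3, Ccr1 and Ccrl2 in neutrophil-like cells, Ccl4, Ccl6 and Ccl9 in mast cell- or basophil-like cells and Ccr2 again in NK cell-like cells. The classes counted here as myeloid were neutrophil, immature neutrophil, progenitor, monocyte, macrophage, dendritic and osteoclast. Such a class was highest for 6 of 9 members in MGJ, against 22.7% of the 14542 genes with at least 50 UMIs. In MGJ2 one was highest for 5 of 9, against 27.4% of 12826 genes. Mast cell- or basophil-like cells, highest for Ccl4, Ccl6 and Ccl9 in MGJ2, were left out of these counts and shares. The highest class was at least 2-fold above the next for 4 of 9 members in MGJ, where the share over all genes was 21.3%, and for 6 of 9 in MGJ2, where it was 21.1%. The median ratio of highest to next class was 1.97 over the members and 1.33 over all genes in MGJ, and 2.97 and 1.33 in MGJ2.

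**Figure D1:**
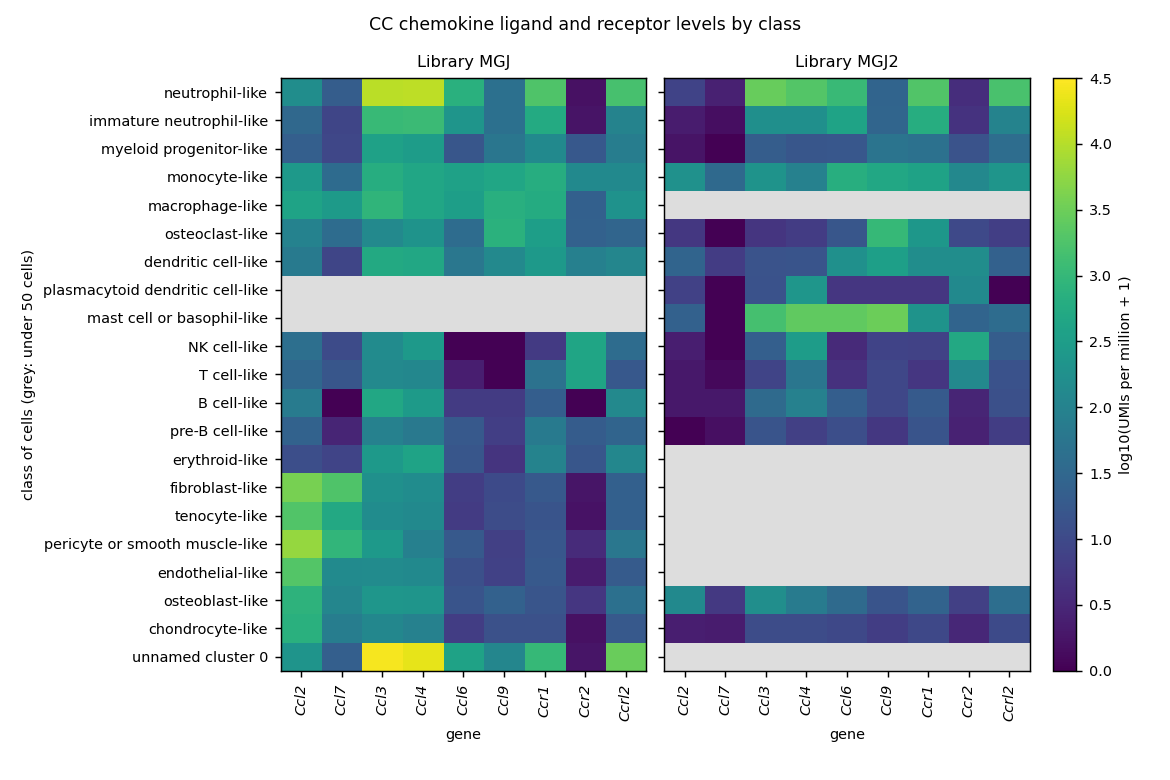
Level of each gene (columns) in each class of cells (rows) in the 2 libraries, as log10(CPM + 1), with classes under 50 cells in grey. In MGJ, Ccl2 and Ccl7 are brightest in the stromal rows and Ccl3 and Ccl4 in the neutrophil-like and unnamed rows. Ccr2 is brightest there in the NK cell- and T cell-like rows. In MGJ2, Ccl3 is brightest in the neutrophil-like row, Ccl4 in the mast cell- or basophil-like row and Ccr2 in the NK cell-like row.

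Ccl2 (monocyte chemoattractant protein 1) and Ccl7, both ligands of Ccr2, were stromal genes by level in MGJ. Ccl2 reached 6112 CPM in pericyte- or smooth muscle-like cells, 3830.5 CPM in fibroblast-like cells, 1991 CPM in endothelial-like cells and 1929.6 CPM in tenocyte-like cells. With each cell named by its own score, the first was 3352 CPM and fibroblast-like cells were highest. The first was 1.596 times the second (95% interval 1.56 to 1.64), whereas tenocyte-like cells stood at 0.969 times endothelial-like cells (0.93997 to 0.999). Fibroblast-like cells held 9.57 times (9.303 to 9.85) the Ccl2 level of macrophage-like cells, which stood at 400.2 CPM. Erythroid-like cells were lowest, with 3 UMIs. In the order of the 18 classes, 8 of the 17 neighbouring pairs had an interval that included 1, all of them from osteoclast-like cells downward.

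Ccl7 (monocyte chemoattractant protein 3) was highest in fibroblast-like cells, at 1795 CPM, 1.97 times (1.85 to 2.0998) the 911 CPM of pericyte- or smooth muscle-like cells. The fibroblast-like level was between 1159 and 1174 CPM in 3 of the 12 alternatives tried, with fibroblast-like cells still highest. Tenocyte-like cells had 509 CPM, and macrophage-like cells 286 CPM, the highest level of the leukocyte classes and 7.83 times (6.704 to 9.196) that of monocyte-like cells. The mix of the neighbouring genes therefore differed between classes. Ccl7 made up 41.6% (40.6 to 42.7) of the UMIs of the pair in macrophage-like cells and 31.9% (31.5 to 32.3) in fibroblast-like cells. It made up 12.98% (12.2 to 13.7) in pericyte- or smooth muscle-like cells and 6.61% (5.95 to 7.31) in endothelial-like cells, where nearly all UMIs of the pair were Ccl2. The macrophage list summed to 158 CPM in pericyte- or smooth muscle-like cells and 20 CPM in fibroblast-like cells. It summed to 4872 CPM in macrophage-like and 147 CPM in monocyte-like cells, and its part in the Ccl2 level was not tested. The fibroblast list (Dcn, Lum, Pdgfra and others) summed to 4412 CPM in pericyte- or smooth muscle-like cells and 21554 CPM in fibroblast-like cells, and its part in the Ccl2 level was not tested.

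Detection of Ccl2 was also highest in stromal classes after every cell was thinned to 1000 UMIs, which puts deep and shallow cells on one footing and left out 0 to 224 shallower cells per class. A Ccl2 UMI was found in 56.1% of fibroblast-like cells (51.9 to 60.3), 48.9% of pericyte- or smooth muscle-like cells (40.3 to 57.6) and 35.2% of tenocyte-like cells (31.97 to 38.6). Without thinning these were 86.5%, 64.5% and 66.5%. In pre-B cell-like cells, taken as the reference for free RNA, the thinned share was 3.797% (0.7901 to 10.7), at median depths of 4850 UMIs there and 17154 UMIs in fibroblast-like cells. Within fibroblast-like cells Ccl2 and Ccl7 occurred together: 74.7% of cells with a Ccl2 UMI (69.5 to 79.4) also had a Ccl7 UMI, against 30.4% of the others (24.7 to 36.5). In pericyte- or smooth muscle-like cells these shares were 44.8% (32.6 to 57.4) and 5.71% (1.58 to 13.99).

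Chondrocyte-like cells were the most numerous named class of MGJ, with 2640 cells, and held 31.6% of its Ccl2 UMIs, against 44.8% of all UMIs. Their Ccl2 level was 726 CPM, 1.81 times (1.76 to 1.87) that of macrophage-like cells, and it differed between their clusters. Cluster 1, led by Ucma, a gene of cartilage matrix, had 926 CPM, and cluster 27, led by cell cycle genes, had 996 CPM. Cluster 7, led by Col10a1 and Ihh, genes of hypertrophic cartilage, had 163 CPM, so that cluster 1 stood 5.67 times (5.44 to 5.91) above it. Ccl7 followed, with 101 CPM in cluster 1 and 20.7 CPM in cluster 7, a ratio of 4.86 (4.33 to 5.47). Other members ran the opposite way. Cluster 1 stood at 0.4405 times cluster 7 for Ccl9 (0.377 to 0.515) and 0.695 times for Ccrl2 (0.607 to 0.797). It stood at 0.734 times for Ccl6 (0.574 to 0.941) and 0.882 times for Ccl3 (0.836 to 0.931). The interval included 1 for Ccl4 (ratio 1.02, 0.959 to 1.09), Ccr1 (1.05, 0.882 to 1.26) and Ccr2 (0.5903, 0.286 to 1.26). Levels in clusters 1 and 7 were 9.096 and 20.6 CPM for Ccl9 and 116 and 132 CPM for Ccl3. Pre-B cell-like cells had 5.73 CPM of Ccl9 (1.18 to 16.8, 3 UMIs) and 93.7 CPM of Ccl3 (69.3 to 124). Ccrl2 stood at 15.5 and 22.2 CPM, within the interval of that reference (26.8 CPM, 14.6 to 44.9). Ccl6 stood at 5.03 and 6.86 CPM, below the interval of the reference (17.2 CPM, 7.87 to 32.7). The part of free RNA was not tested. Ccl2 was unevenly spread: the 264 chondrocyte-like cells (10%) with the highest Ccl2 level per UMI held 80.1% of the class's Ccl2 UMIs and 11.5% of all its UMIs, and 46.1% of the cells had none. In fibroblast-like cells the corresponding 10% held 43.97%, and 13.5% of the cells had none. The spread was not particular to chondrocyte-like cells. The top 10% held 87.96% in osteoblast-like, 77.5% in endothelial-like and 70.2% in macrophage-like cells. They held 61.9% in tenocyte-like and 44.1% in pericyte- or smooth muscle-like cells.

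In MGJ2, which had few stromal cells, monocyte-like cells had the highest Ccl2 and Ccl7 levels of the classes with at least 50 cells. Smaller classes held more per UMI: the 33 macrophage-like cells had 20.3% of the Ccl7 UMIs (143) and 3.74% of the Ccl2 UMIs (127) with 0.697% of all UMIs, and the 49 endothelial-like cells had 3.24% of the Ccl2 UMIs (110) with 0.746%. Monocyte-like cells had 72.4% of the Ccl7 UMIs with 26.3% of all UMIs. Ccl2 stood at 186 CPM in monocyte-like cells, 1.39 times (1.13 to 1.74) the 134 CPM of osteoblast-like cells, and 83.8% of its UMIs lay in monocyte-like cells. The 65 osteoblast-like cells also held the neutrophil list at 12008 CPM, whose part was not tested. Ccl7 stood at 33.4 CPM in monocyte-like cells, 6.25 times (4.08 to 10.1) dendritic cell-like cells. Both ligands were unevenly spread over the monocyte-like cells, of which 95.1% had no Ccl7 UMI and 70.4% no Ccl2 UMI. The 10% with the highest level held 77.01% of the class's Ccl2 UMIs. For Ccl7 that share was 100%, which the small share of cells with a UMI fixed in advance. The 141 chondrocyte-like cells of MGJ2 held 6 Ccl2 UMIs, a level of 1.42 CPM, and pre-B cell-like cells held none, which allows up to 1.65 CPM. The chondrocyte-like cells of MGJ2 were mainly cluster 7 (93 cells), whose Ccl2 level was 1.75 CPM there and 163 CPM in MGJ. Monocyte-like cells of the libraries lay at 262 CPM in MGJ and 186 CPM in MGJ2 for Ccl2, and at 36.5 and 33.4 CPM for Ccl7. Library, mice and cluster cannot be told apart in these side-by-side values.

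**Figure D2:**
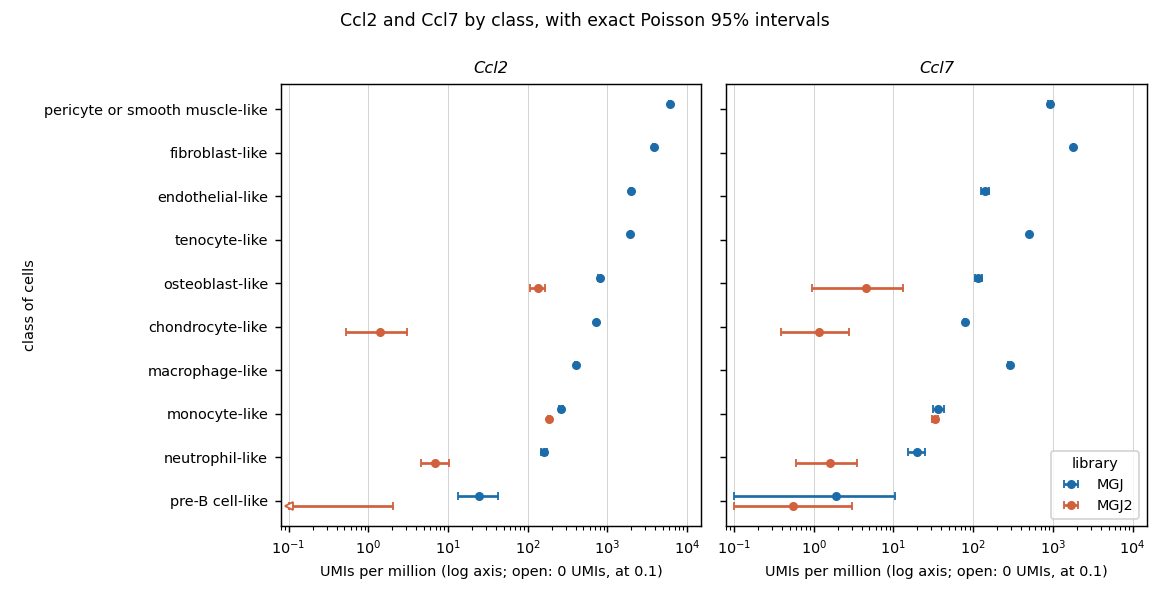
CPM of Ccl2 and Ccl7 (log axis) by class in MGJ (blue) and MGJ2 (orange), with exact Poisson 95% intervals drawn down to 0.1 CPM and open symbols for 0 UMIs. In MGJ the stromal classes lie above macrophage- and monocyte-like cells for Ccl2, and the monocyte-like points of the libraries lie close together.

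Ccl3 and Ccl4 (macrophage inflammatory proteins 1-alpha and 1-beta) were carried in MGJ by neutrophil-like cells and the unnamed cluster 0. Ccl3 is a ligand of Ccr1. Ccl3 stood at 10841 CPM in neutrophil-like cells of MGJ, 10.02 times (9.66 to 10.4) immature neutrophil-like cells and 16.9 times (16.3 to 17.6) monocyte-like cells. Ccl4 stood at 11349 CPM, 9.63 times (9.29 to 9.98) immature neutrophil-like cells. Median depth was 1858 UMIs in the mature and 4639 UMIs in the immature class.

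The neutrophil-like average hid a wide range between clusters. Ccl3 was at 6969 CPM in cluster 5, at 30582 CPM in cluster 22, which was led by the interferon-response genes Ifit1, Rsad2 and Isg15, and at 27795 CPM in the unnamed cluster 0. Cluster 5 thus stood at 0.228 times cluster 22 (0.223 to 0.233), and cluster 0 at 0.909 times cluster 22 (0.895 to 0.923). Ccl4 ran in the same order, at 8144, 27825 and 21487 CPM. Cluster 0 alone held 67.4% of all Ccl3 UMIs and 63.8% of all Ccl4 UMIs of MGJ, with 20.6% of the cells and 4.09% of the UMIs. With cluster 0 counted as neutrophil-like, the Ccl3 level of the class was 21063 CPM and the Ccl4 level 17461 CPM, and with at most 10% mitochondrial UMIs they were 27164 and 24840.3 CPM. After thinning, Ccl3 was detected in 97.1% (96.4 to 97.8) of cells of cluster 0, 96.8% (93.9 to 98.6) of cluster 22 and 77.8% (75.4 to 80.1) of cluster 5.

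Ccl6 and Ccr1 ordered these clusters differently. Ccr1 was higher in cluster 5 than in cluster 22, at 1925 against 1135 CPM (1.696-fold, 1.56 to 1.84), and Ccl6 was 5.08-fold higher (4.12 to 6.33), at 837 against 165 CPM. Ccrl2 followed Ccl3, at 886 CPM in cluster 5, 2922 CPM in cluster 0 and 4787 CPM in cluster 22. The clusters with the most Ccl3, Ccl4 and Ccrl2 were thus not the one with the most Ccr1 and Ccl6.

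In MGJ2, neutrophil-like cells stood at 2881 CPM for Ccl3 and 1972 CPM for Ccl4, 16.9 times (15.7 to 18.3) and 11.5 times (10.7 to 12.5) immature neutrophil-like cells. Cluster 2, which made up most of them, had 2854 CPM of Ccl3 and 1901 CPM of Ccl4. Ccr1 in cluster 2 stood at 1929.7 CPM, and in cluster 5 of MGJ it had stood at 1925 CPM. Thinned detection of Ccl3 in cluster 2 was 57.4% (54.9 to 59.8) and of Ccr1 79.7% (77.7 to 81.7).

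**Figure D3:**
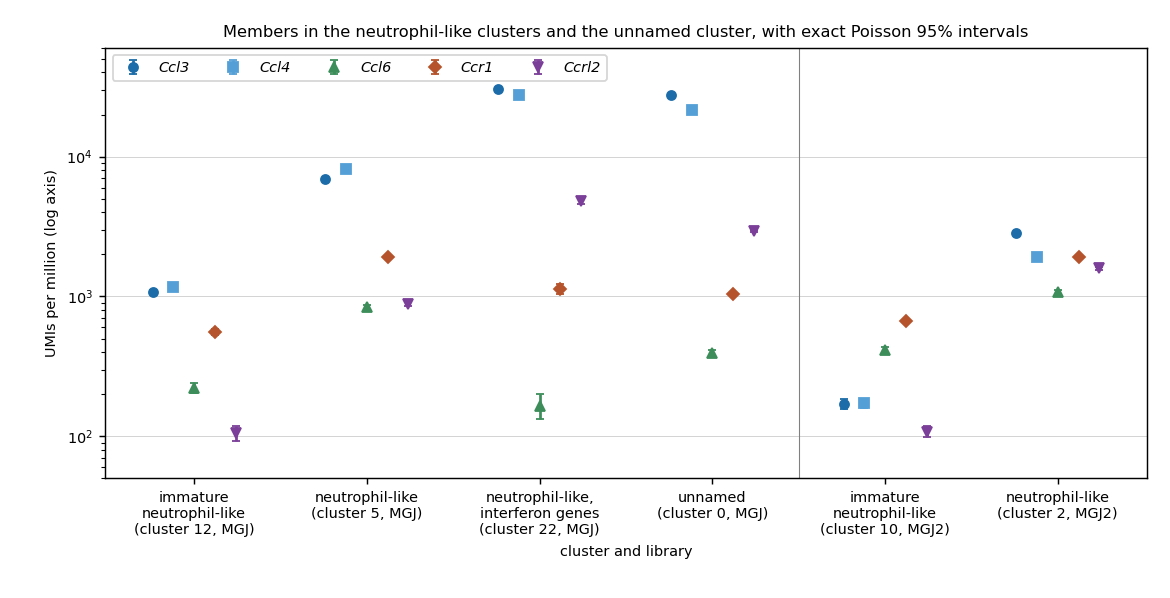
CPM (log axis) of Ccl3, Ccl4, Ccl6, Ccr1 and Ccrl2 in the larger neutrophil-like and immature neutrophil-like clusters and the unnamed cluster 0, with exact Poisson 95% intervals. Ccl3, Ccl4 and Ccrl2 are high in clusters 22 and 0 of MGJ, where Ccl6 lies at 165 and 394 CPM, below its 837 CPM in cluster 5.

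Outside these cells Ccl3 and Ccl4 had UMIs in every class of MGJ, at lower levels. Pre-B cell-like cells, the reference, held 93.7 CPM of Ccl3 and 64.99 CPM of Ccl4, chondrocyte-like cells 119.8 and 95.9 CPM, and fibroblast-like cells 179 and 153 CPM. Ccl4 made up 44.5% (43.6 to 45.4) of the UMIs of the pair in chondrocyte-like cells and 46.1% (44.4 to 47.8) in fibroblast-like cells. It made up 46.7% (45.2 to 48.3) in tenocyte-like cells and 43.6% (43.4 to 43.8) in cluster 0. Over the classes of MGJ the share ran from 24.5% (20.4 to 28.98) in pericyte- or smooth muscle-like cells to 63.95% (52.9 to 74.03) in NK cell-like cells. A thinned Ccl3 UMI was found in 7.59% (2.84 to 15.8) of pre-B cell-like cells and 7.56% (6.58 to 8.64) of chondrocyte-like cells. Thinned detection in the latter was thus no higher than in the reference, at median depths of 21095 and 4850 UMIs. The UMIs were unevenly spread, however: the 264 chondrocyte-like cells (10%) with the highest Ccl3 level held 78.2% of the class's Ccl3 UMIs and 8.22% of all its UMIs, and their source was not tested. The neutrophil list summed to 1730 and 1233 CPM in these classes and to 142525 CPM in neutrophil-like cells. The reference was the lowest of the 18 classes for both genes, so every other class lay above it in level. T cell- and NK cell-like cells had 128 and 147 CPM of Ccl3. Immature neutrophil-like cells had 1082 CPM of Ccl3, found in 25.05% of cells (21.5 to 28.9), and monocyte-like cells 640.4 CPM, found in 24.5% (21.2 to 27.9). Dendritic cell- and B cell-like cells had 538 and 508 CPM, but a Ccl3 UMI was found in 7.89% (2.95 to 16.4) and 7.50% (2.802 to 15.6) of them. Macrophage-like cells had 873 CPM, found in 29.2% of cells (26.9 to 31.6), with a Ccl4 share of the pair of 34.9% (34.2 to 35.6). Among macrophage-like cells with a Ccl3 UMI 41.03% (36.3 to 45.8) also had a Ccl4 UMI, against 9.44% (7.73 to 11.4) of the others.

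Mast cell- or basophil-like cells of MGJ2, 106 cells marked by Mcpt8, Cpa3, Fcer1a and Ms4a2, held 4 of the 6 ligands at over 1000 CPM. Ccl3 stood at 1463 CPM, Ccl4 at 2474 CPM, Ccl6 at 2517 CPM and Ccl9 at 3069 CPM. With every cell weighted equally, Ccl4, Ccl6 and Ccl9 were at 4942, 5556 and 6066 CPM. Against neutrophil-like cells, Ccl3 was at 0.508 times (0.478 to 0.539), Ccl4 at 1.25 times (1.19 to 1.32) and Ccl6 at 2.26 times (2.14 to 2.38). Thinned detection ran from 64.8% of cells for Ccl4 and Ccl6 (54.8 to 73.8 for each) to 76.2% for Ccl9 (66.9 to 83.96), while Ccl2 was found in 2.86% and Ccl7 in 0 of 105 cells, with an upper bound of 3.45%. The neutrophil list summed to 1575 CPM in these cells, against 64726 CPM in neutrophil-like cells. The monocyte list summed to 4061 CPM, against 4706 CPM in monocyte-like cells, and its part was not tested.

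NK cell-, T cell- and plasmacytoid dendritic cell-like cells of MGJ2 held Ccl4 with little Ccl3. Ccl4 stood at 306 CPM in NK cell-like cells and 233 CPM in plasmacytoid dendritic cell-like cells, where Ccl3 stood at 22.3 and 12.6 CPM. Ccl4 thus made up 93.2% (91.4 to 94.7) and 94.9% (89.2 to 98.1) of the UMIs of the pair, and 88.7% (84.4 to 92.1) in T cell-like cells. In neutrophil-like cells of the same library it made up 40.6% (39.9 to 41.4). The mix was not particular to lymphoid and plasmacytoid dendritic cell-like cells. The 33 macrophage-like cells of MGJ2, too few to be ranked, held 655 Ccl4 UMIs and 69 Ccl3 UMIs. How these UMIs were spread over the 33 cells was not tested. A thinned Ccl4 UMI was found in 11.3% of NK cell-like cells (9.03 to 13.97) and in 0.667% of pre-B cell-like cells (0.0169 to 3.66), at median depths of 3826 and 8453 UMIs.

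Ccl6 and Ccl9, neighbouring mouse genes whose products bind Ccr1, split the myeloid classes. Ccl6 stood at 719.5 CPM in neutrophil-like cells of MGJ and at 376 and 326 CPM in monocyte- and macrophage-like cells. In MGJ2 it stood at 1114 CPM in neutrophil-like cells and 663 CPM in monocyte-like cells, a ratio of 1.68 (1.62 to 1.74). The Ccl6 level of MGJ neutrophil-like cells depended on which low-UMI clusters took that name: it was between 199.9 and 460.2 CPM in 5 of the 12 alternatives tried. Monocyte- or macrophage-like cells were highest in 4 of these 5. The alternatives at 500 genes and at resolution 0.5 gave no value, as neutrophil-like cells were under 50. The order of the leading Ccl6 classes of MGJ is thus not settled by these data.

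Ccl9 was high in osteoclast-like cells and other mononuclear phagocytes and low in neutrophil-like cells. In MGJ it stood at 753 CPM in osteoclast-like cells, 1.098 times (1.05 to 1.15) macrophage-like cells, and at 457 CPM in monocyte-like cells, 10.01 times (8.49 to 11.9) neutrophil-like cells. In MGJ2 it stood at 1033 CPM in osteoclast-like cells and 501 CPM in monocyte-like cells, 18.3 times (15.04 to 22.5) neutrophil-like cells. The osteoclast-like cells of MGJ also held macrophage markers, which summed to 1247 CPM there and to 204 CPM in MGJ2, and their part was not tested. Macrophage-like cells were ahead of osteoclast-like cells for Ccl9 in MGJ in 3 of the alternatives. Ccl9 was detected in 38.8% (31.6 to 46.3) of osteoclast-like cells of MGJ and 51.5% (38.9 to 64.01) of those of MGJ2 after thinning, and in 0 of 79 and 0 of 150 pre-B cell-like cells, with upper bounds of 4.56% and 2.43%.

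The share of Ccl9 in the UMIs of the Ccl6 and Ccl9 pair had the widest range of the 3 neighbouring pairs. It was 5.97% (5.09 to 6.95) in neutrophil-like cells of MGJ and 2.399% (1.96 to 2.905) in those of MGJ2. It was 54.9% (53.3 to 56.4) and 43.02% (42.3 to 43.7) in monocyte-like cells, and 95.2% (94.3 to 96.04) and 98.6% (97.98 to 98.99) in osteoclast-like cells. The order of these 3 classes was the same in both libraries. Macrophage-like cells of MGJ lay between, at 67.8% (67.01 to 68.6).

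**Figure D4:**
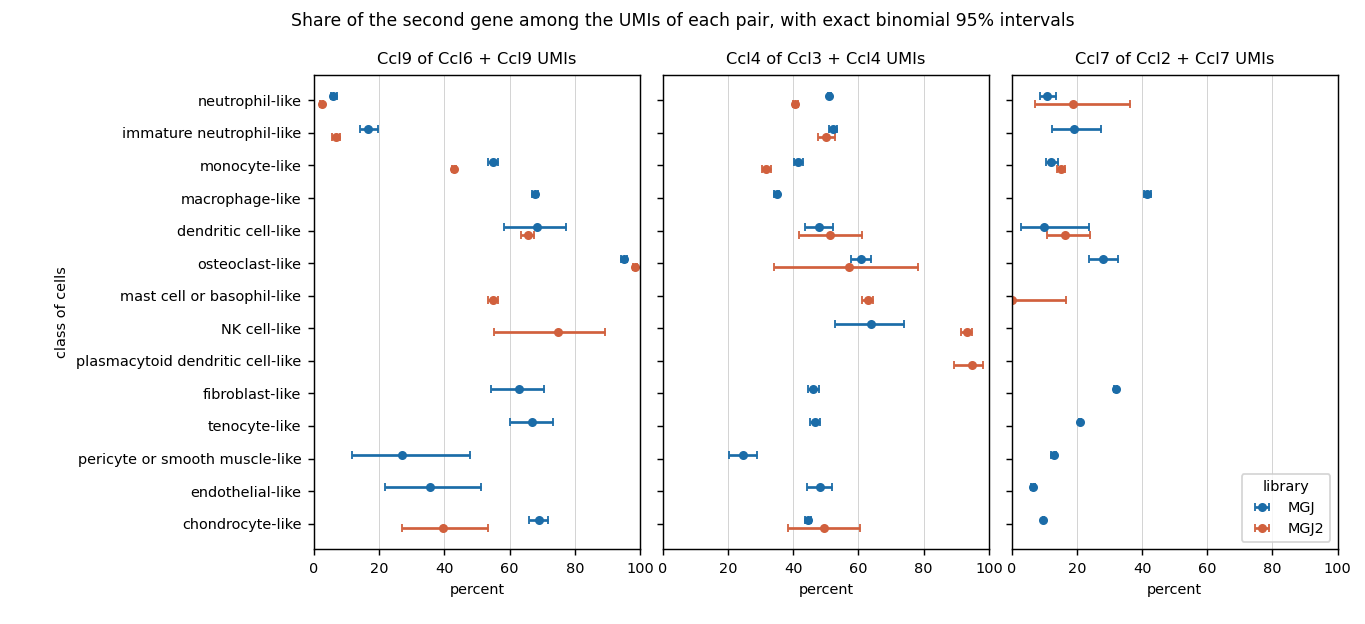
Percent of the second gene among the UMIs of 3 neighbouring gene pairs by class, for classes with at least 20 UMIs of the pair, in MGJ (blue) and MGJ2 (orange), with exact binomial 95% intervals. Ccl9 of Ccl6 + Ccl9 goes from under 10% in neutrophil-like cells to above 90% in osteoclast-like cells in both libraries, and Ccl4 of Ccl3 + Ccl4 is above 90% in NK cell- and plasmacytoid dendritic cell-like cells of MGJ2.

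Ccr1, a receptor for Ccl3, Ccl6, Ccl7 and Ccl9, was highest in neutrophil-like cells of both libraries, at 1802 CPM in MGJ and 1929 CPM in MGJ2. Monocyte-like cells had 648 and 384 CPM, and immature neutrophil-like cells 558 and 645 CPM. The ratio of neutrophil- to immature neutrophil-like cells was 3.23 (3.06 to 3.41) in MGJ and 2.99 (2.86 to 3.13) in MGJ2. Osteoclast-like cells also held Ccr1, at 335 and 242 CPM. After thinning, Ccr1 was found in 75.6% (73.3 to 77.7) and 79.7% (77.6 to 81.7) of neutrophil-like cells and in 1.63% (1.19 to 2.195) and 1.42% (0.172 to 5.03) of chondrocyte-like cells, the reference for receptors. Median depth was 1858 and 2227 UMIs in the former and 21095 and 29235 UMIs in the latter. Ccr1 was spread more evenly than the ligands: the 10% of neutrophil-like cells of MGJ with the highest level held 23.8% of its UMIs, against 49.4% for Ccl3 and 48.6% for Ccl4.

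Within neutrophil-like cells, the intervals of Ccl3 detection overlapped between cells with and without a Ccr1 UMI. In MGJ 80.6% (78.2 to 82.8) of cells with Ccr1 and 82.1% (77.9 to 85.9) of cells without it had a Ccl3 UMI, and in MGJ2 56.6% (53.8 to 59.4) and 59.8% (54.2 to 65.1). Ccl3 and Ccrl2, in contrast, were found together. Ccrl2 was present in 50.04% (47.2 to 52.9) of MGJ cells with Ccl3 and 29.1% (23.96 to 34.7) of those without. In MGJ2 these shares were 63.2% (60.002 to 66.4) and 42.5% (38.8 to 46.3). The neutrophil-like class of MGJ pools clusters 5 and 22, which differed in Ccl3, Ccrl2 and Ccr1. Co-detection within each cluster was not tested.

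Ccr2, the receptor for Ccl2 and Ccl7 and a marker of classical monocytes, was highest in NK cell-like cells in both libraries. It stood at 445 CPM in MGJ and 516 CPM in MGJ2 in these cells. T cell-like cells of MGJ had 416 CPM, which could not be told apart from NK cell-like cells (ratio 1.07, 0.839 to 1.35), whereas in MGJ2 they had 132 CPM and the ratio was 3.903 (3.54 to 4.303). The T cell-like clusters differed in MGJ2, where cluster 15, led by Icos and Cxcr6, stood 4.76 times (3.91 to 5.83) above cluster 16. Cluster 15 made up 185 of the 212 T cell-like cells of MGJ and 346 of the 799 of MGJ2.

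Monocyte-like cells had 136 CPM of Ccr2 in MGJ and 126 CPM in MGJ2, and as the larger class they held 38.8% and 38.5% of all Ccr2 UMIs. In MGJ they stood 5.85 times (5.097 to 6.71) above macrophage-like cells, which had 23.3 CPM. Monocyte-like cells stood at 1.504 times (1.12 to 2.06) dendritic cell-like cells in MGJ and 0.787 times (0.7201 to 0.861) in MGJ2. Dendritic cell-like cells of MGJ2 had 160.02 CPM and 13.2% of the Ccr2 UMIs. In MGJ2 the monocyte-like cluster 24, led by Cd300e, Ear2 and Treml4, genes of patrolling monocytes, had 16.9 CPM of Ccr2, and cluster 4 had 127 CPM, 7.52 times as much (4.08 to 15.7). Cluster 24 also had less Ccl2 than cluster 4, at 37.1 against 203 CPM, and more Ccl3, at 1148 against 170.4 CPM. Neutrophil-like cells held 2 Ccr2 UMIs in MGJ and 11 in MGJ2. After thinning, a Ccr2 UMI was found in 31.9% (21.2 to 44.2) and 29.2% (25.8 to 32.8) of NK cell-like cells, and in 0.07602% (0.00921 to 0.274) and 0.709% (0.01795 to 3.89) of chondrocyte-like cells.

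The classes with the most Ccl2 and Ccl7 in MGJ thus held next to no Ccr2: fibroblast-like cells had 8 Ccr2 UMIs, pericyte- or smooth muscle-like cells 3 and endothelial-like cells 3. In MGJ2 monocyte-like cells, which held most UMIs of both ligands, also held Ccr2.

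Ccrl2 was highest in neutrophil-like cells of both libraries, at 1546 CPM in MGJ and 1583 CPM in MGJ2. The next class was macrophage-like cells in MGJ, at 198 CPM (7.802-fold lower, 7.45 to 8.18), and monocyte-like cells in MGJ2, at 219 CPM (7.23-fold lower, 6.93 to 7.54). It stood 14.9 times (13.3 to 16.8) and 15.3 times (13.8 to 16.9) above immature neutrophil-like cells, a wider step than that of Ccr1. The level in MGJ was between 2376 and 4648 CPM in 5 of the alternatives, the lower value with cluster 0 counted as neutrophil-like, and neutrophil-like cells remained the highest class wherever they reached 50 cells. A thinned Ccrl2 UMI was found in 46.1% (43.5 to 48.6) and 54.4% (51.9 to 56.8) of neutrophil-like cells, and in 1.37% (0.9601 to 1.89) and 0.709% (0.01795 to 3.89) of chondrocyte-like cells.

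**Figure D5:**
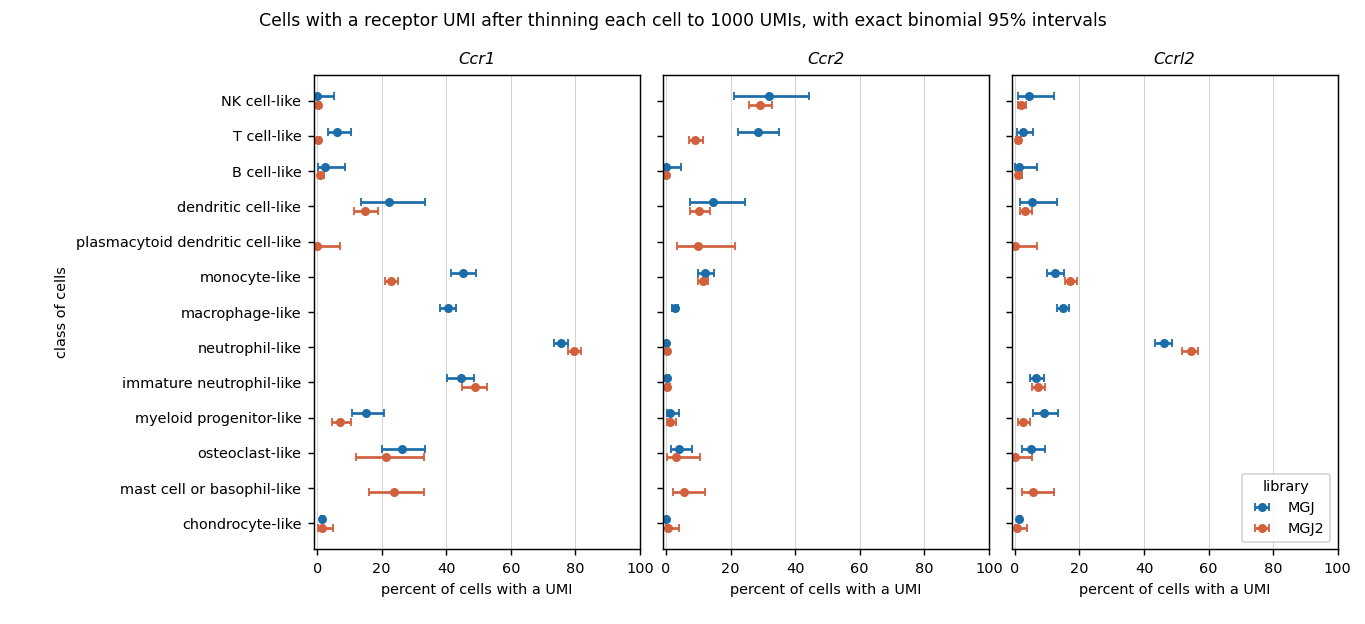
Percent of cells with a UMI of Ccr1, Ccr2 and Ccrl2 after thinning to 1000 UMIs, by class, in MGJ (blue) and MGJ2 (orange), with exact binomial 95% intervals. Ccr1 and Ccrl2 peak in neutrophil-like cells, Ccr2 in NK cell-like cells, and chondrocyte-like cells lie near 0.

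Across clusters of at least 50 cells (23 in MGJ, 18 in MGJ2), the members fell into patterns that can be described by Pearson's r of log2(CPM + 10). Clusters of a library share its depth and free RNA, so these values are descriptions. Ccl2 and Ccl7 had r of 0.910 in MGJ and 0.831 in MGJ2, Ccl3 and Ccl4 0.978 and 0.785, Ccl3 and Ccrl2 0.981 and 0.836, and Ccl6 and Ccr1 0.927 and 0.762. Ccr2 stood apart from Ccr1, with r of 0.055 and -0.092. Outside the set, the genes most like the members in both libraries included Acod1 for Ccl3 (0.949 and 0.934), Osm and Il1b for Ccl6 (0.934 and 0.901 for Osm), Clec4d and Il1rn for Ccr1 (0.958 and 0.926 for Clec4d) and Runx3 for Ccr2 (0.846 and 0.868). For Ccl9 they included C3ar1 (0.830 and 0.865), for Ccrl2 Tlr13 (0.895 and 0.897), for Ccl4 Tmbim6 (0.859 and 0.774), and for Ccl2 and Ccl7 Map3k6 (0.830 and 0.819 with Ccl2).

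The other genes of the family were followed with a list of 14 CC ligands and 11 CC or scavenging receptors. In MGJ 13 ligands and 7 receptors had at least 50 UMIs, and 8 of these 20 genes were highest in a myeloid class, against 22.7% of all genes. In MGJ2 5 ligands and 6 receptors did, with 3 of the 11 highest in a myeloid class, near the 27.4% of all genes. Mast cell- or basophil-like cells, highest for Ccr3 in MGJ2, were again not counted as myeloid. Ccl5, a T cell and NK cell chemokine, was highest in NK cell-like cells, at 6219 CPM (5887 to 6565) in MGJ and 7106 CPM (7009 to 7203) in MGJ2.

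Ccl8 and Ccl12, relatives of Ccl2, were highest in macrophage-like cells of MGJ, at 241 CPM (232 to 249) and 26.7 CPM (24.04 to 29.6), and had 4 and 6 UMIs in MGJ2. Ccl11 (eotaxin) and Ccl19 were highest in pericyte- or smooth muscle-like cells of MGJ, at 385 CPM (350.1 to 423) and 129 CPM (109 to 152), like Ccl2. Ccl21a, which guides dendritic cells into lymphatics, was highest in endothelial-like cells, at 1160.1 CPM (1118 to 1203), as was the scavenger Ackr1, at 247 CPM (228 to 268). Dendritic cell-like cells led for Ccl22, at 268 CPM (226 to 316) and 279 CPM (263 to 296), and for Ccr7, at 1475 CPM (1374 to 1582) and 1098 CPM (1066 to 1131). Ccr9 stood at 5318 CPM (5113 to 5529) in plasmacytoid dendritic cell-like cells of MGJ2, where Ccr2 stood at 134 CPM.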

How the data were processed

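Callus cells were captured with the 10x Genomics 3′ kit. The authors deposited raw UMI counts per gene and barcode. The file headers name Cell Ranger 4.0.0, and the submitters' processing notes name GRCm38, while the annotation release is not given in the sources used here. Barcodes under 200 genes or above 20% mitochondrial UMIs were removed. Doublets were called with Scrublet (scanpy 1.11.5) at a score above 0.25, a threshold chosen after the automatic one was seen to change with the random seed. These were 528 barcodes of MGJ and 231 of MGJ2, which were removed.

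Both libraries were clustered together without integration (2000 variable genes, 30 principal components, 15 neighbours, Leiden resolution 1.0, leidenalg 0.10.2), with 70 chemokine and chemokine receptor genes kept out. Each of 31 clusters took the name of the best of 25 marker lists given a score of 1.0 or more and 3 or more markers above their mean level and present in 10% of cells. A cluster with a median UMI count below 0.333 of the library's and no marker of its list among its 10 leading genes (cluster 0) and a cluster with under 3 markers (cluster 20) stayed unnamed, with 2791 cells of MGJ and 183 of MGJ2. Levels are summed UMIs per 1000000 (CPM) with exact Poisson intervals, shares have Clopper-Pearson intervals, and ratios exact conditional binomial intervals, all at 95%. The 0 limits quoted as CPM are 3 UMIs of the class total. UMIs tag the 3′ end, so levels were compared between classes and not between genes. No test was run, since the labels put neither library in a group. The calculation was tested on simulated data.

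Named genes were the 9 members, listed family genes with at least 50 UMIs, and the 3 genes most like each member, of which 1 gene is not reported here. The members and lists were chosen with earlier results of these data known. Python 3.11.15 and scipy 1.17.1 were used.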

Additional observations from a re-analysis of the deposited data

Results flagged for a closer look

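The barcodes removed before the analysis also held these genes. In MGJ the 1363 removed barcodes had 4065 CPM of the 9 genes together (4026 to 4104), against 5032 CPM in the cells kept, and in MGJ2 the 434 removed barcodes had 2242 CPM (2190.3 to 2296), against 1767 CPM. Both values are above the level that a count of 0 allows (0.297 and 0.958 CPM). The removed barcodes were not assigned to classes.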

How the results depend on the processing

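The class with the highest level was compared under 12 alternatives for 18 results (9 genes in each library), of which 1, Scrublet's automatic threshold, was added after seeing the data. The reported class stayed first in 192 of 206 values. It was in position 2 for Ccl2 in MGJ with each cell named by its own score (fibroblast-like first), and for Ccl2 and Ccl7 in MGJ2 at resolution 0.5 and with each cell named by its own score (macrophage-like first). Ccl7 in MGJ2 was also in position 2 with each library clustered alone (osteoclast-like first). For Ccl6 in MGJ, neutrophil-like cells were in position 3 with doublet calls kept and at 10% mitochondrial UMIs, and in position 2 at the automatic doublet threshold and with each library clustered alone. For Ccl9 in MGJ osteoclast-like cells were in position 2, behind macrophage-like cells, with doublet calls kept, at 10% mitochondrial UMIs and with every cell weighted equally, and for Ccr2 in MGJ NK cell-like cells were in position 2, behind T cell-like cells, with every cell weighted equally. No value could be given for 5 genes of MGJ (Ccl3, Ccl4, Ccl6, Ccr1, Ccrl2) at 500 genes and at resolution 0.5, where neutrophil-like cells were under 50. The level in the leading class moved by over 1.5 times in 26 of 206 values, of 9 results. In MGJ these were mostly values of neutrophil-like cells, whose clusters lie at the UMI limit. For Ccl4, Ccl6 and Ccl9 of mast cell- or basophil-like cells of MGJ2, weighting every cell equally gave 4942, 5556 and 6066 CPM. Thinning to 2000 UMIs moved 14 of 18 shares beyond their interval. No paired analysis was possible because the labels put neither library in a group. Depth limits the smaller classes, and since each library stands alone, differences between animals were not measured.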
